A study of Mus musculus with 6 samples.

Results

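The genes of MHC class II antigen presentation were read on one-colour Agilent arrays of renal cortex from male mice, with 3 samples per group and 1 array per sample. The 8 genes were H2-Ab1, H2-Aa, H2-Eb1, Cd74, H2-DMa, H2-DMb1, H2-DMb2 and Ciita, of 32822 genes named on the array. All probes carrying these names in a scanner file were taken, which gave 15 probes. The genes were chosen with the difference between the groups of these same arrays in view, so the values of the members are a description and no test of them is given. The labels give the groups as db/m and db/db genotypes at an age of 16 weeks, and they mention 8 weeks of HQD (Huangqi Decoction, a herbal formula). The paper's methods and the design text instead compare db/db mice with and without HQD. The groups are therefore called labelled db/m and labelled db/db, and differences were taken as the first group minus the second. The names of the deposited files could also be read as the opposite genotypes, so every direction given here is that of the labels. In the paper's methods, db/db mice are C57BLKS/J mice that lack a working leptin receptor and develop obesity and type 2 diabetes, and db/m mice are the non-diabetic controls. Which dose of HQD was given to the mice of the arrays is not named there. The paper's methods give 3 mice per group for the arrays, and the labels do not say which sample came from which animal.

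MHC class II molecules are pairs of an alpha and a beta chain that carry peptides from the endosomes to the surface of a cell and show them to CD4 T cells. In the mouse, H2-Aa and H2-Ab1 encode the pair called I-A, and H2-Eb1 encodes the beta chain of I-E. Cd74, the invariant chain, fills the groove of a new molecule, and H2-DM, made of H2-DMa with H2-DMb1 or H2-DMb2, exchanges its remnant for other peptides. Ciita is the coactivator that the promoters of these genes share, and interferon gamma is its best known inducer. Dendritic cells, B cells and macrophages carry class II constantly, and tubular epithelium of the kidney can express it under inflammation.

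The promoters of class II genes are known for a set of common elements. RefSeq promoter sequences (build GRCm38.p6) were found for 5 of the 8 genes, H2-DMa with 2 of them, and the 250 bases before each start were searched on both strands. Shown here are windows of 90 bases, 5′ to 3′ on the strand of the gene, in which capitals mark the matches. They are the promoters with a match to the Y box, the site of the factor NF-Y.
H2-Eb1, chr17:34305746-34305835, plus strand: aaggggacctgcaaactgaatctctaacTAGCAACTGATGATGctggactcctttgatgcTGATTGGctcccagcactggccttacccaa
H2-DMb1, chr17:34153068-34153157, plus strand: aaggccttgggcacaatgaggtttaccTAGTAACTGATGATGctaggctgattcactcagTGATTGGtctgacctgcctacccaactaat
H2-DMb2, chr17:34145097-34145186, plus strand: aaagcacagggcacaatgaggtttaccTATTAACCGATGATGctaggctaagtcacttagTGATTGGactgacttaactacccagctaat
H2-Aa, chr17:34287844-34287933, minus strand: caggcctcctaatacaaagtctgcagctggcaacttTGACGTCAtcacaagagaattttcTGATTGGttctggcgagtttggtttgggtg

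The Y box was searched as TGATTGG and was found in 7.23% of all 32851 promoters. The longer run in H2-Eb1, H2-DMb1 and H2-DMb2 is of the kind called the X box, the site of the RFX complex, searched as TANNAACNGATGATG. These letters are the consensus of the members that hold GATGATG before a Y box, chosen after those promoters had been read, and 3 of the 32851 promoters (0.00913%) held them, namely these members. The X box ended 17 bases before the Y box in H2-Eb1 and 18 bases before it in H2-DMb1 and H2-DMb2. H2-Aa had no match to these letters and held TGACGTCA, the cAMP response element bound by CREB, which 1.55% of all promoters held. Neither promoter of H2-DMa held any of the 3 motifs in this window. The X box letters were drawn from other genes, so a missing match in H2-Aa or H2-DMa does not show that they lack an X box. The searched motifs do not overlap each other. A match is a description of letters and not a measured site.

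Of the 8 genes, 7 were measured above background, and each of them was lower in the arrays labelled db/m. The median of their differences was -0.46 on the log2 scale, and the differences ran from -0.83 for H2-DMb1 to -0.30 for H2-Eb1. All 10 of the probes tested lay below 0, and none reached a 2-fold difference. Tested probes are those called well above background throughout 1 or both groups. In 4 of the 7 genes (57.1%), and in 7 of the 10 probes, every array labelled db/m was below every array labelled db/db. Among all 29889 probes tested, 16.8% were separated in this direction. The genes were chosen on this contrast, so nothing is read from the excess over that background. In whole tissue, fewer cells of a type and less RNA per cell cannot be told apart.

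**Figure D1:**
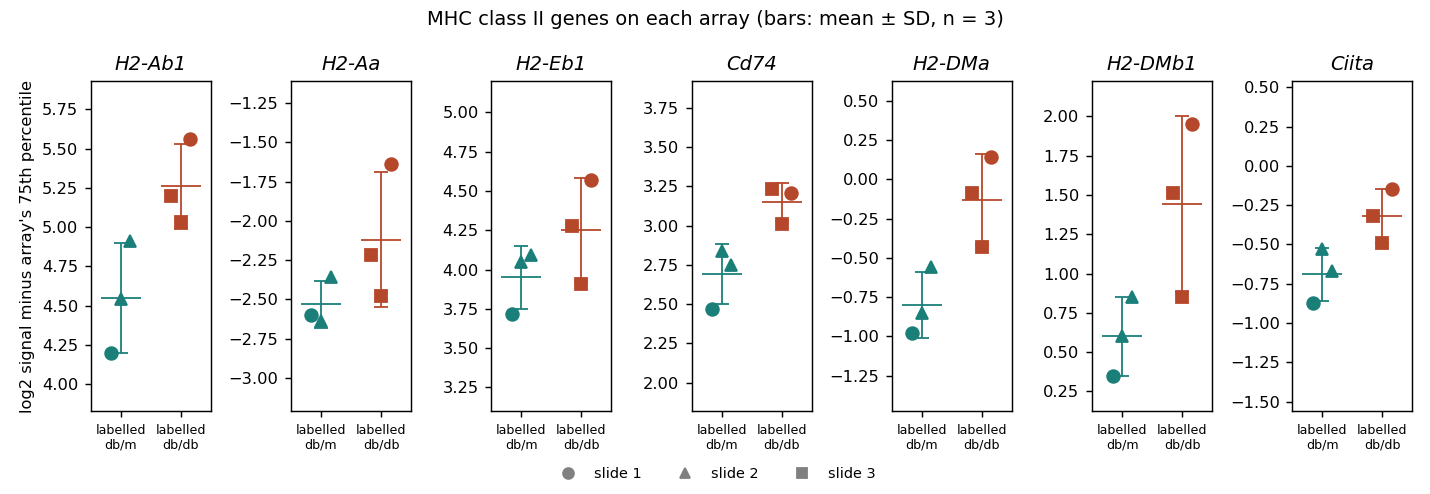
The log2 signal minus the 75th percentile of the array is plotted on each array for the 7 genes, in panels of equal height (2.1 log2 units) with their own offset. Points are single arrays, with the slide given by the symbol, and bars show the mean ± SD of 3 arrays. Labelled db/db replicate 3 is the highest array in 6 of the 7 genes, and labelled db/m replicate 1 is the lowest in 6 of them.

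The beta chain of I-A, H2-Ab1, was read by 4 probes, all well above background on all 6 arrays. Values below are log2 signals minus the 75th percentile of each array. Its brightest probe, A_55_P1962747 (mm9, chromosome 17, 34406296 to 34406355), stood at 4.20, 4.54 and 4.91 in labelled db/m replicates 1 to 3. It stood at 5.20, 5.03 and 5.56 in labelled db/db replicates 1 to 3. The groups did not overlap, and the difference was -0.71 (SE 0.22, n = 3 and 3), which is 1.64-fold more signal in labelled db/db. The other 3 probes gave -0.64 (SE 0.21), -0.72 (SE 0.20) and -0.89 (SE 0.21), and the groups did not overlap in any of them. The difference of -0.89 came from the dimmest probe, A_55_P2741874, with a ratio of 1.85. It stood at 0.77, 1 and 1.34 in labelled db/m against 1.94, 1.60 and 2.24 in labelled db/db.

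An overlapping pair of H2-Ab1 probes gives no independent looks at the gene, as its letters show. All probes of the gene read the same arrays. A_55_P1962747 and A_55_P2146560 share 51 bases and differ in 1 of them, C42T, counted from the 5′ end of A_55_P2146560. The 30 bases around the difference, from 22 to 51 of A_55_P2146560 and from 31 to 60 of A_55_P1962747, are given 5′ to 3′ with the base that differs in capitals.
A_55_P2146560: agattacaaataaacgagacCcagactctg
A_55_P1962747: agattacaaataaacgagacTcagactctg
These probes gave differences of -0.64 and -0.71. The fourth probe, A_55_P2741874, lies elsewhere in the gene, in coding sequence (mm9, chr17:34404357-34404416, plus strand), and its 60 bases are shown because it gave the largest difference among the probes of H2-Ab1.
A_55_P2741874: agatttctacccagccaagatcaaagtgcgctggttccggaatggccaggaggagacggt
The classical class II genes are highly polymorphic, and the alleles of these mice were not compared with the probes. Levels of different probes are therefore not set against each other.

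The partner chain, H2-Aa, was read by 1 dim probe, A_52_P343306 (mm9, chr17:34421285-34421344, minus strand), which lies in coding sequence. It is shown because the alpha chain of I-A rests on these 60 bases alone.
A_52_P343306: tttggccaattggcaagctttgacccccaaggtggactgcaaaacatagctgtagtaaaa
It stood at -2.60, -2.64 and -2.36 in labelled db/m, and at -2.22, -2.48 and -1.64 in labelled db/db. The groups overlapped, since labelled db/db replicate 2 lay below labelled db/m replicate 3. The difference was -0.42 (SE 0.22, n = 3 and 3), and it was -0.18 with labelled db/db replicate 3 left out. The pair of chains thus had differences of the same sign, with that of H2-Aa resting largely on 1 array.

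The beta chain of I-E, H2-Eb1, was read by A_55_P2156731 (mm9, chromosome 17, 34453075 to 34453134). It stood at 3.72, 4.05 and 4.09 in labelled db/m and at 4.28, 3.91 and 4.57 in labelled db/db. The groups overlapped, as labelled db/db replicate 2 lay below 2 of the arrays labelled db/m. Its difference of -0.30 (SE 0.20, n = 3 and 3) was the smallest of the 7. Leaving out labelled db/db replicate 3 gave -0.14, leaving out labelled db/m replicate 1 gave -0.18, and quantile normalization gave -0.17.

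The invariant chain, Cd74, had the smallest spread within labelled db/db. Its probe A_51_P284608, on chromosome 18, stood at 2.47, 2.84 and 2.75 in labelled db/m and at 3.23, 3.01 and 3.21 in labelled db/db. The groups did not overlap, and the difference was -0.46 (SE 0.14, n = 3 and 3), a ratio of 1.38.

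The peptide exchange factor H2-DM was read on both of its chains. The alpha chain, H2-DMa, was read by A_51_P473734 (mm9, chromosome 17, 34274300 to 34274863, a span wider than the probe). It stood at -0.98, -0.85 and -0.56 in labelled db/m and at -0.09, -0.43 and 0.14 in labelled db/db, without overlap. The difference was -0.67 (SE 0.19, n = 3 and 3), a ratio of 1.59.

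The beta chain H2-DMb1, read by A_51_P278868 (mm9, chromosome 17, 34297109 to 34297168), had the largest difference of the 7 genes, at -0.83 (SE 0.29, n = 3 and 3), and the widest spread. It stood at 0.35, 0.60 and 0.85 in labelled db/m and at 1.51, 0.85 and 1.95 in labelled db/db. Labelled db/db replicate 2 met labelled db/m replicate 3, so the groups touched, while the other arrays labelled db/db stood clear of all arrays labelled db/m. Leaving out labelled db/db replicate 3 gave -0.57, and leaving out replicate 2 gave -1.13.

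The second beta chain gene, H2-DMb2, was not measured. Its only probe stayed at background on all 6 arrays, and the same held for a second probe of H2-DMb1. Their log2 signals lay between -6.55 and -5.92 on every array, and neither was tested.

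The coactivator Ciita, read by A_66_P119948 (mm9, chromosome 16, 10526458 to 10526517), stood at -0.87, -0.53 and -0.67 in labelled db/m. It stood at -0.32, -0.49 and -0.15 in labelled db/db. The groups were separated by a narrow gap, from -0.53 to -0.49, and the difference was -0.37 (SE 0.14, n = 3 and 3). A further 3 probes of Ciita were too dim to test. They were well above background on 0, 1 and 3 arrays, and those 3 arrays were of both groups. Of these, A_55_P2035003 stood at -4.51, -1.33 and -3.82 in labelled db/m and at -4.42, -5.38 and -3.76 in labelled db/db. A_55_P2736700 stood at -0.98 in labelled db/db replicate 3 and between -5.65 and -4.64 on the other 5 arrays.

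**Figure D2:**
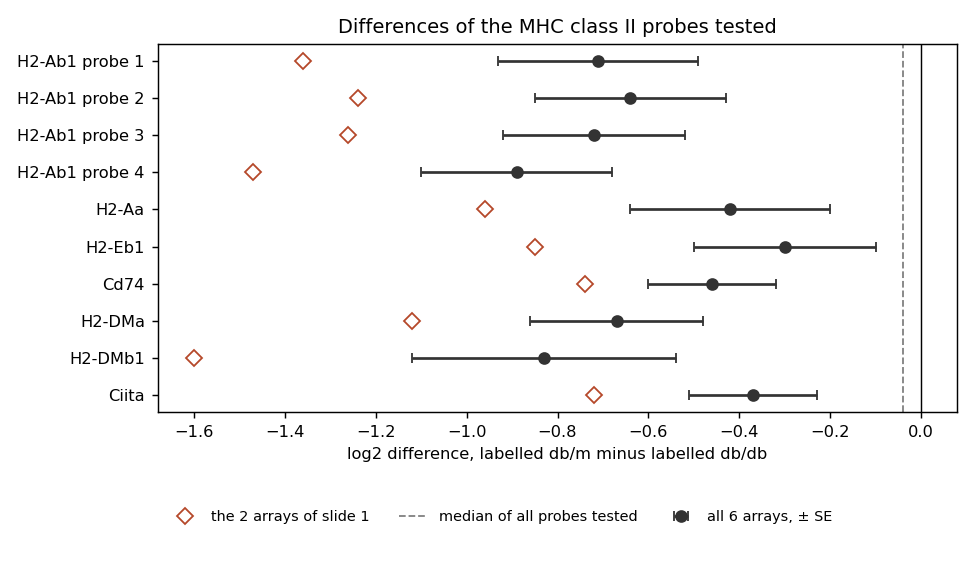
The log2 difference, labelled db/m minus labelled db/db, is plotted for each of the 10 probes tested. Filled points with bars are the estimates from all 6 arrays ± SE, open diamonds are the difference between the 2 arrays of slide 1, and the dashed line is the median of all 29889 probes tested (-0.04). Every estimate lies between -0.89 and -0.30, and every within-slide difference is larger in size, between -1.60 and -0.72.

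The arrays lay on 3 slides, and slide 1 alone held both groups, namely replicate 1 of labelled db/m beside replicate 3 of labelled db/db. These arrays were also the extremes of most members. Within slide 1 the difference was -1.36 for the brightest H2-Ab1 probe, -1.60 for H2-DMb1, -1.12 for H2-DMa, -0.96 for H2-Aa, -0.85 for H2-Eb1, -0.74 for Cd74 and -0.72 for Ciita. A fit with the slide as a fixed block returned the same values, because the other slides hold a single group each. With slide as a random block the median over the 7 genes was -0.45.

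The members also varied together among arrays of the same group. Deviations of the 6 arrays from their group means were correlated between the 7 genes, and the 21 pairs had a Pearson r from 0.39 to 0.97 with a median of 0.85. The highest values, 0.97, were between H2-DMb1 and H2-DMa and between H2-DMb1 and H2-Eb1. The lowest, 0.39, was between Cd74 and H2-Aa. The points share the 6 arrays, the RNA on them and the scaling, and with median centring of the arrays the median r was 0.71. In 12 pairs r was above 0.8. H2-DMa, H2-DMb1 and Ciita were set against the mean deviation of H2-Aa, H2-Ab1, H2-Eb1 and Cd74, with an r of 0.97, 0.97 and 0.85. Of all probes well above background on the 6 arrays, 3.72% had an r above 0.8 with that mean.

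That mean deviation was lowest in labelled db/db replicate 2 (-0.27), next lowest in labelled db/m replicate 1 (-0.22) and highest in labelled db/db replicate 3 (0.29), followed by labelled db/m replicate 3 (0.18). Among the 17587 other genes well above background on the 6 arrays, those most like it were ENSMUST00000129718 (r = 0.995), Gm2347 (0.991), Pate2 (0.989), Gm10657 (0.987) and Tspyl5 (0.985), and 36 had an r above 0.95. With 6 arrays and so many genes, r values this high can arise without a link between genes. How many would arise so was not worked out. Whether the alike genes share a difference between the groups was not tested. Gm2347 was higher in labelled db/m by 0.86 (SE 0.14) and Pate2 by 0.68 (SE 0.14), while Tspyl5 differed by 0.01 (SE 0.18).

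The difference of the members stood on a background that leaned the same way for bright probes. Over all 29889 probes the median difference was -0.04, and 54.7% were lower in labelled db/m. It was -0.15 in the brightest 25% and 0.15 in the dimmest 25%, and -0.17 among probes at least as bright as Cd74. At an unadjusted limma p under 0.05, 1978 probes (6.62%) were higher and 3316 (11.1%) lower, and 17.7% passed in either direction. Median centring of the arrays put the median of all differences at -0.22. The split was then 899 higher and 5829 lower, and the median over the members was -0.65. After Benjamini-Hochberg adjustment 0 probes passed in limma. No probe passed in a test of each probe on its own with equal variances either, and 1 did with a trend and robust variance in limma. The smallest adjusted p was 0.0566. The count rose to 302 when replicate 2 of labelled db/m was left out, to 126 when replicate 3 of labelled db/db was, and to 10 when replicate 1 of labelled db/m was.

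The other genes of the pathway were called in both directions. The 6 lists around the members held 41 tested genes, of which 4 were higher and 5 were lower in labelled db/m at an unadjusted limma p under 0.05. These are 22% of the genes, beside 17.7% of all probes. Of the 41, 29 had a difference below 0, beside 54.7% of all probes. With median centring, 1 was higher and 12 were lower. For the lists below, higher and lower are called at that unadjusted threshold, which 6.62% of all probes passed as higher and 11.1% as lower. No gene of the lists passed after Benjamini-Hochberg adjustment over all probes, where the lowest adjusted p was 0.241. The counts rested on single arrays. The higher genes numbered 2 when replicate 1 or 3 of labelled db/m was left out. The lower ones numbered 3 when replicate 1 of either group was left out.

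Among other class II loci, 2 of 4 on the array were tested, with 0 higher and 1 lower. H2-Ea-ps, the I-E alpha locus, which is a pseudogene in the C57BL/6 reference, had a difference within the range of the members. It stood at -2.36, -2.36 and -2.11 in labelled db/m and at -1.74, -1.99 and -1.50 in labelled db/db, so the groups did not overlap. The difference was -0.54 (SE 0.16, limma adjusted p = 0.241). H2-Ob, the beta chain of the H2-DM inhibitor H2-O, was dim, at 0.70 (SE 0.36, limma adjusted p = 0.336). Its probe was well above background on 4 arrays and was tested through labelled db/m alone, the group in which it was higher. In labelled db/db replicates 1 and 2 it stood at -5.05 and -4.51. The lowest signals above background on those arrays were -3.80 and -3.86, so no direction is read from it. The other probes of H2-Ob stayed at background on all arrays.

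Of the 7 factors that bind the class II promoter elements shown above, 1 was higher and 0 were lower in labelled db/m, and the median difference was -0.07. The higher one was Creb1, which binds the cAMP response element, at 0.28 (SE 0.11, adjusted p = 0.268 in limma) by its brightest probe. The other tested probes of Creb1 gave 0.05, 0.01 and -0.18, and the mean over its probes was 0.04. Rfx5, Rfxank and Rfxap, the subunits of RFX, had differences of -0.15, -0.07 and -0.28, and Nfya, Nfyb and Nfyc of NF-Y had 0.35, -0.04 and -0.07. None of these 6 passed.

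Of the interferon gamma pathway upstream of Ciita, 8 of 9 genes were tested, with 1 higher and 1 lower. The cytokine gene Ifng itself was not tested, as it was too dim. The kinase Jak2 was lower, at -0.45, -0.68 and -0.65 in labelled db/m against 0.07, -0.10 and -0.30 in labelled db/db. Its difference was -0.49 (SE 0.14, limma adjusted p = 0.241). Within slide 1 its difference was -0.16. Socs1, an inhibitor of that signalling, was higher by 0.34 (SE 0.14, adjusted p = 0.272 in limma), but only by 0.09 with the normexp background correction. Irf1 and Ifngr1 had differences of -0.09 and 0.03 and did not pass.

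Of the 9 genes of antigen processing and class II turnover, 1 was higher and 1 lower, with a median of -0.27. Marchf1, the ubiquitin ligase that takes class II off the cell surface, was higher. It stood at 3.36, 2.64 and 2.79 in labelled db/m and at 2.21, 1.97 and 2.37 in labelled db/db, without overlap. Its difference was 0.75 (SE 0.21, limma adjusted p = 0.241). A further probe, under the older name March1, was well above background on only 1 array and was not tested. The protease gene Ctsl was lower by -0.58 (SE 0.17, adjusted p = 0.241 in limma), and its second probe gave -0.50. Ctss, the protease that trims the invariant chain in antigen presenting cells, stood at 0.03 (SE 0.10, adjusted p = 0.889 in limma). Ctsl and the other cathepsin genes are expressed throughout the kidney.

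Of the costimulatory molecules only Cd80 was bright enough to test, and Cd86, Cd40 and Icosl were not tested. Cd80 was higher in labelled db/m by 0.58 (SE 0.15, adjusted p = 0.241 in limma). Its 3 further probes stayed at background on all arrays. The MHC class I pathway presents peptides to CD8 T cells. Of its 14 genes, 0 were higher and 2 were lower (beside 6.62% and 11.1% of all probes), with a median of -0.13. The lower ones were H2-D1, a class I heavy chain, at -0.25 (SE 0.10, adjusted p = 0.275 in limma), and Psmb8, a subunit of the immunoproteasome, at -0.39 (SE 0.16, adjusted p = 0.279 in limma). After quantile normalization H2-D1 stood at -0.08. H2-K1 and B2m, the other chains of class I, had differences of 0.11 and -0.22 and did not pass.

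**Figure D3:**
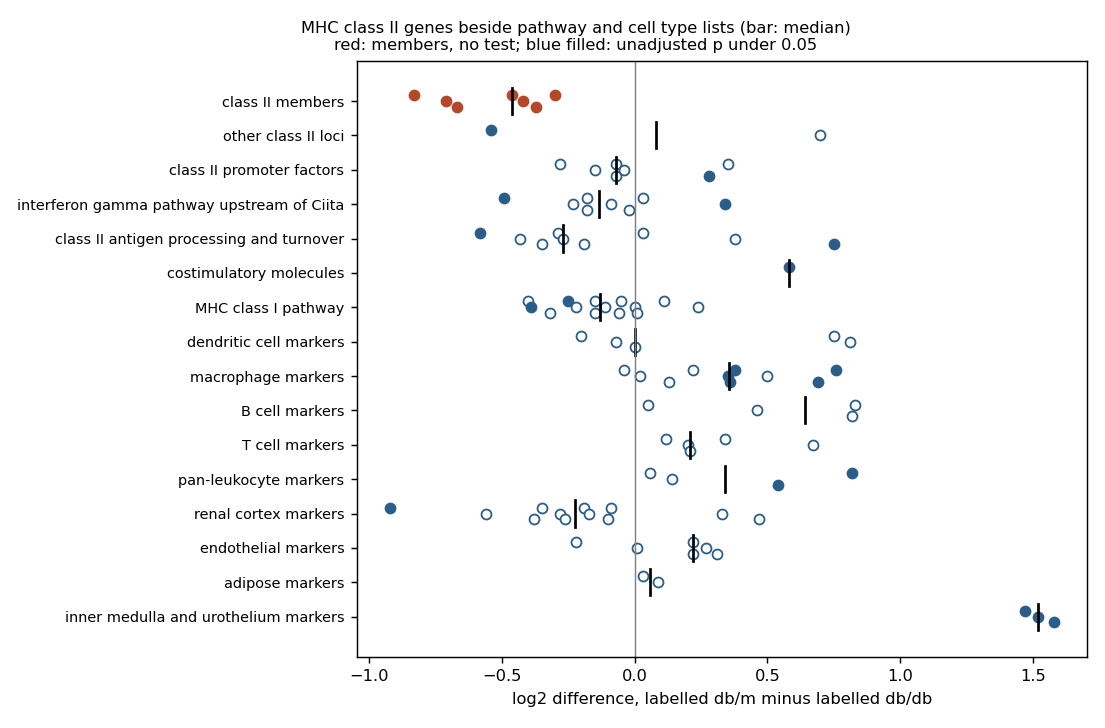
Each point is the log2 difference, labelled db/m minus labelled db/db, of 1 gene tested, by list, and the black bar is the median of the list. Members are red and carry no test, and filled blue points have an unadjusted limma p under 0.05. The 7 class II genes, which were chosen on this contrast, lie at or below -0.30. By their brightest probes, 9 of 10 macrophage markers lie above 0, and 54.7% of all probes tested lie below 0.

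At the unadjusted limma threshold, 6.62% of all probes were higher and 11.1% lower in labelled db/m. Of the tested markers of macrophages, dendritic cells and B cells, which carry class II, 0 were lower. Several defining markers of dendritic cells and B cells were too dim to test, so that 0 covers only part of them. Of 10 macrophage markers, 5 were higher in labelled db/m and 0 were lower, with a median of 0.35. They were Lyz2 (0.76, SE 0.30, adjusted p = 0.272 in limma), Itgam (0.69, SE 0.17, adjusted p = 0.241), Cx3cr1 (0.38, SE 0.12, adjusted p = 0.241), Adgre1 (0.36, SE 0.12, adjusted p = 0.241) and C1qc (0.35, SE 0.12, adjusted p = 0.25). Adgre1, a surface receptor of macrophages, stood at -1.86, -2.04 and -1.75 in labelled db/m and at -2.21, -2.24 and -2.30 in labelled db/db. The signals of the markers, summed on the linear scale with the 75th percentile of each array as 1, ran from 34.4 to 55.2 in labelled db/m and from 25.5 to 30.5 in labelled db/db. These sums are carried by the brightest probes, those of Itgam, Csf1r and Lyz2, and the second probes of these genes are not in them. In labelled db/m the brightest probes averaged 4.17, 3.49 and 3.18, and the second probes -2.72, -0.52 and -2.21.

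The macrophage count was not firm. It was 2 when replicate 3 of labelled db/m was left out, 3 when replicate 1 or 2 of labelled db/db was, and 2 after median centring, in the fit with slide as a fixed block and with the mean of all probes of a gene. Second probes gave 0.16 for Itgam, 0.15 for Csf1r, 0.82 for Lyz2 and -0.26 for Cx3cr1, none past the threshold. C1qa and C1qb, which like C1qc (0.35) mark resident macrophages, had differences of -0.04 and 0.13.

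Of 5 pan-leukocyte markers 4 were tested, with 2 higher and 0 lower. Ptprc, which encodes CD45, was higher by 0.54 (SE 0.16, adjusted p = 0.241 in limma), and Laptm5 by 0.82 (SE 0.12, adjusted p = 0.241 in limma) from a dim probe that was well above background on 4 arrays. Other tested probes of Ptprc gave 0.02 and 0.83, and with slide as a fixed block its difference was 0.14. Laptm5 stood at 0.33 with the normexp background correction. Its probe was tested through labelled db/m alone, the group in which it was higher, and the filter on all arrays left it out. In labelled db/db replicates 1 and 2 it stood at -4.13 and -3.88. The lowest signals above background on those arrays were -3.80 and -3.86, so the size of its difference is uncertain. The summed signal was 9.39 to 10.2 in labelled db/m and 6.53 to 8.99 in labelled db/db. Of 10 dendritic cell markers 5 were tested and 0 passed, with a median of 0. The defining Itgax, Xcr1, Clec9a, Cd209a and Irf4 were not tested, and Flt3 and Zbtb46 had differences of 0.75 (SE 0.45) and -0.07 (SE 0.17). Flt3, too, was tested through labelled db/m alone, the group in which it was higher. The summed signal of the dendritic cell markers was 2.21 to 2.57 against 2.08 to 2.72. Of 7 B cell markers 4 were tested, 0 passed, and Ms4a1 and Cd79a were too dim, with a summed signal of 1.19 to 1.79 against 0.936 to 1.37. Of 8 T cell markers 5 were tested and 0 passed, Cd3e at 0.12 (SE 0.22). Their summed signal was 7.02 to 8.10 against 5.19 to 10.5. A count of 0 here is for an unadjusted limma p under 0.05. The part of these cells in the class II difference was not tested.

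The tissue was checked against its own markers, and all 12 markers of the renal cortex were bright enough to test, with a summed signal of 921 to 1100 in labelled db/m and 1090 to 1220 in labelled db/db. One of them passed, Slc12a3 of the distal convoluted tubule, at -0.92 (SE 0.15, adjusted p = 0.241 in limma). Of 6 markers of the inner medulla and urothelium, 3 were tested and all 3 were higher in labelled db/m, Slc14a2 by 1.58, Krt5 by 1.52 and Aqp4 by 1.47. Aqp4 stood at 2.73, 0.76 and 2.26 in labelled db/m and at 0.32, 0.24 and 0.78 in labelled db/db. Labelled db/m replicate 2, low in these markers, was between the other arrays of its group in H2-Ab1, H2-Eb1, H2-DMa and H2-DMb1, the highest of its group in Cd74 and Ciita and the lowest in H2-Aa. Of 6 endothelial markers 0 passed, with a summed signal of 38.5 to 52.2 against 36.1 to 42.5. Of 5 adipose markers 2 were tested and 0 passed, with a summed signal of 0.229 to 0.326 against 0.237 to 0.305. The part of the tissue taken in the class II difference was not tested. The leptin receptor gene Lepr had 1 tested probe, with a difference of 0.41 (adjusted p = 0.449 in limma), and the probe was not placed against the db mutation, so it checks no genotype.

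Of 17 alternative ways of processing the arrays, 4 (both other filters on dim probes, the floor for dim arrays and the replicate block) left every member as reported. Under the other 13 the 7 genes kept their sign, and the size moved. H2-Ab1 ran from -1.36 to -0.54, H2-DMb1 from -1.60 to -0.57, H2-DMa from -1.12 to -0.54, Cd74 from -0.74 to -0.35 and Ciita from -0.72 to -0.28. H2-Aa ran from -0.96 to -0.18 and H2-Eb1 from -0.85 to -0.14. The lowest value of each gene came from the fit with slide as a fixed block.

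**Figure D4:**
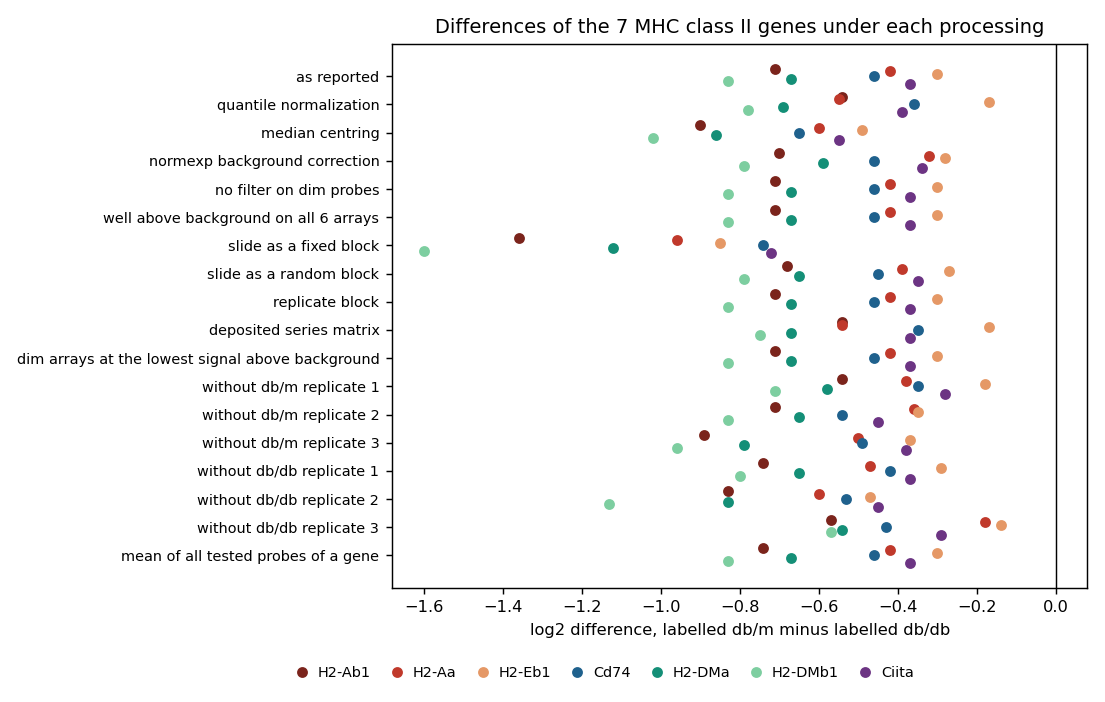
The log2 difference, labelled db/m minus labelled db/db, of each of the 7 genes is plotted for the processing as reported and for the 17 alternatives, 1 row each. Every point lies below 0, those of the fixed slide block farthest (-1.60 to -0.72) and those without labelled db/db replicate 3 nearest for H2-Eb1 (-0.14) and H2-Aa (-0.18).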

How the data were processed

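Renal cortex RNA was labelled with Cy3 and hybridised to 6 one-colour arrays. The authors deposited the scanner files of Feature Extraction 10.7.1.1, with the intensity of each spot after background subtraction and no scaling between arrays. A deposited matrix holds log2 values that, once sorted, differ by at most 0.0243 between arrays, as after quantile normalization. Control spots were removed, as were 135 probes flagged as outliers, and repeated spots were averaged, leaving 56470 probes (R 4.3.3, limma 3.58.1). The 75th percentile of an array was subtracted from its log2 intensity. No probe was saturated. Arrays carry no counts, so their number limits the precision, and 3 against 3 cannot give an exact two-sided p below 0.1. Median intensity was 75.9 to 113. The brightest tested probe stood for a gene. Groups came from the labels and were compared with lmFit and eBayes, which were tested on simulated data. The members and gene lists were chosen with earlier results of these data known. Named genes were all members, pathway genes with an unadjusted p under 0.05, defining markers of the cell lists and the 5 genes most like the members. Genes named beyond this rule were chosen after their values were seen. Arrays correlated at 0.981 to 0.993, and no pair was identical. In the file of labelled db/m replicate 1, 71 gene names differed from the other files, so names were taken from those. Alternatives were other scalings, background correction, filters, blocks, tests, the deposited matrix and leaving out each array. A gene of the lists is not reported here by name and stays in the counts.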

Additional observations from a re-analysis of the deposited data

How the results depend on the processing

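Depth here is signal over background, which kept H2-DMb2, 3 of 7 B cell markers and 5 of 10 dendritic cell markers out of reach. The median over the class II genes was -0.46. It was -0.96 with the slide as a fixed block, which by construction is the difference of the 2 arrays of slide 1. Under the other alternatives it ran from -0.65 with median centring to -0.38 without labelled db/m replicate 1. It ran from -0.60 to -0.38 when 1 array was left out. The 4 higher pathway genes became 1 with median centring, 2 with no filter on dim probes and 2 with the fixed slide block, and 2 to 5 with 1 array left out. The 5 lower ones became 12 with median centring, 3 with the fixed slide block and 3 to 6 with 1 array left out. The 5 higher macrophage markers became 2 with median centring, the fixed slide block or the mean of all probes of a gene, and 2 to 5 with 1 array left out. Of all probes, 1978 were higher, and 899 with median centring, 1216 in a test of each probe on its own and 1042 to 3288 with 1 array left out. The 3316 lower ones became 5829 with median centring, 1588 with the fixed slide block and 1236 to 4170 with 1 array left out. Each of the 6 arrays, when left out, moved at least 1 of these counts by over 1.5 times. Past an adjusted p of 0.05 there were 0 probes, 1 each with median centring, normexp correction, the filter on all 6 arrays and the trend and robust variance, and 0 to 302 with 1 array left out. The causes were not tested. Whether the replicate numbers pair the arrays was not settled. Deviations of arrays with the same number correlated at 0.35, 0.15 and 0.05, and 4 of 6 arrays correlated best with their own number. A replicate block gave 8 lower and 5 higher pathway genes, a member median of -0.46, and 2405 higher and 4234 lower probes.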
